A study of Homo sapiens with 8 samples.

Results

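Human chromosome 18 was represented by 7011 of the 278316 windows of 100 kb in which SON TSA-seq signal was reported for 786-O cells. All windows named for this chromosome were taken, 779 in each of 9 sets that were shifted against each other by 10 kb, with positions on hg19. The chromosome was singled out because its median change with PT2399 lay near 0, so its changes are described here and not tested. 786-O is a single established line of clear cell renal carcinoma without functional VHL, in which HIF-2α is constantly active. The cells, grown under atmospheric oxygen, received either the vehicle DMSO or 2 µM PT2399, a small molecule that keeps HIF-2α from pairing with ARNT, for 3 h. The series has 8 libraries in 4 groups of 2, a SON pulldown and an input for DMSO and for PT2399. For 4 of these 8 the antibody and treatment fields contradict the title, and the title was followed. The 2 libraries titled as DMSO pulldowns are entered as input and PT2399 in those fields, and the 2 titled as PT2399 inputs are entered as SON and DMSO. The deposited columns are headed control and treatment and name no library, so it cannot be told which of these libraries the control values came from. Control is read here as DMSO, and every change below depends on that reading and on the right libraries having entered the authors' control column. The deposited values are the authors' group values, 1 log2 concentration per treatment and window with no value per library, so no spread between replicates can be given and the depth is unknown.

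SON is a scaffold protein of nuclear speckles, bodies in the nuclear interior that are rich in splicing factors. In TSA-seq a peroxidase coupled to the antibody deposits biotin on nearby DNA, so a high value marks chromatin close to speckles. Gene-dense, highly transcribed chromosome segments tend to lie near speckles, and gene-poor segments near the lamina at the nuclear edge. Chromosome 18 is the textbook example of a gene-poor chromosome at the nuclear periphery, set against gene-dense chromosome 19 in the interior.

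Most of chromosome 18 carried no SON signal above the lowest reported value. Each treatment has a fixed lowest value, -0.07 for DMSO and -0.11 for PT2399, called the floor. On chromosome 18, 5459 windows (77.9%) lay at the floor in both treatments, against 60.4% on the other autosomes. By this share it ranked 3 of 22 autosomes, after chromosome 4 with 87.3% and chromosome 13 with 84.4%. Chromosome 19 had 7.93%. Gaps in the assembly were not screened out, so any gap in a chromosome adds to its floor share and to its length. Chromosome 18 also had 3.47 protein-coding genes per Mb, rank 2 from the lowest, where chromosome 13 had 2.94 and chromosome 19 had 24.6 (gene counts from a RefSeq table, lengths from the windows).

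A window is called measured when both its DMSO and its PT2399 value reach a log2 concentration of 2, which 1122 windows (16%) of chromosome 18 did. Their median level, the mean of both treatments, was 6.77 (quartiles 5.84 and 7.62) against 8.64 on the other autosomes. The highest level on the chromosome was 9.01. Only 1 measured window (0.0891%) reached a level of 9, as 43.1% of the measured windows of the other autosomes did. Windows of neighbouring sets share most of their DNA, and a single set held between 120 and 127 measured windows, so the 1122 windows are not independent. Just inside the minimum lay chr18:3000001-3100000, with 5.64 for DMSO and 2.02 for PT2399. Just outside lay chr18:47840001-47940000, with 1.98 and 2.17.

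The signal was concentrated in a few segments. The 45 to 50 Mb bin had the lowest floor share, 42.4%, with 204 of its 450 windows measured. The bins from 10 to 15 Mb, 55 to 60 Mb and 20 to 25 Mb followed with floor shares of 58.2%, 60.2% and 64%. In the 25 to 30 Mb bin all 450 windows were at the floor. The 35 to 40 Mb and 65 to 70 Mb bins had floor shares of 98.9% each, and the 50 to 55 Mb bin had 96.7%. The bin from 15 to 20 Mb, which holds the centromere, had 82.4%. Of the measured windows, 349 started below 15 Mb, on the short arm, and 773 beyond it. The short-arm side had the lower floor share, 63.9% against 81.2%.

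**Figure D1:**
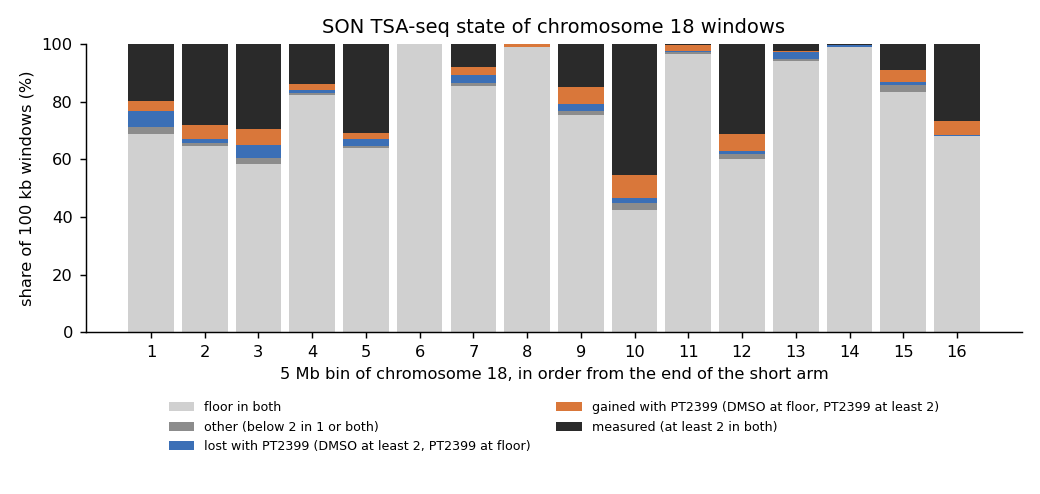
Share of 100 kb windows (percent) in each state, by 5 Mb bin of chromosome 18, numbered 1 to 16 from the end of the short arm; the state is set by the log2 concentration in DMSO and PT2399. Bin 10 (45 to 50 Mb) has the largest measured share, 45.3%, and bin 6 (25 to 30 Mb) lies wholly at the floor.

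Over the measured windows of chromosome 18 the change, PT2399 minus DMSO, had a median of 0.02 on the log2 scale, with quartiles at -0.50 and 0.55. Of the 1122 windows, 572 were higher with PT2399, 543 lower and 7 equal. The median of single sets ran from -0.06 to 0.09, on both sides of 0. On the other autosomes the median was -0.13 with quartiles at -0.33 and 0.07, and 31% of measured windows were higher. Chromosome 18 had the highest median of the 22 autosomes and the only one above 0, the next being -0.07 on chromosomes 3, 8, 9 and 10. The linear concentrations of the measured windows of chromosome 18 summed with PT2399 to between 99.5% and 103% of the DMSO sum over the 9 sets. For the other autosomes that figure was 91.8%. The near-zero median covered wide changes in both directions, from -4.16 to 5.18, and the quartiles lay 1.05 apart. That width went with the low levels. Over all 85929 measured windows of the other autosomes the changes ran from -5.28 to 5.58 and the quartiles lay 0.40 apart. Once these windows were weighted to the levels of chromosome 18, their quartiles lay 1.17 apart.

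The median was a balance between bins that were higher with PT2399 and bins that were lower. Among the 11 bins of 5 Mb with at least 20 measured windows, 6 had a median above 0 and 5 below. The 6 held 544 windows with a median of 0.22, and the 5 held 564 windows with a median of -0.15. Other autosomes, weighted to the levels of these windows, had -0.12 for both groups of bins. The bins were grouped by the sign of their own change, so the distance of each group from the level-matched value is no result. Over the chromosome 644 windows exceeded -0.12, which is 83 more than an even split would give. The bins with a positive median supplied 99 of that excess and the bins with a negative one took away 18. That split also follows the grouping.

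The highest median belonged to the 30 to 35 Mb bin. Its 36 measured windows had median concentrations of 5.22 with DMSO and 6.25 with PT2399. The median change was 1.16 (quartiles 0.80 and 1.88), and 31 of the 36 windows were higher. All 9 sets gave a positive median here, from 0.82 to 1.99, from a level of 5.85 that is low even for this chromosome. The sets overlap and come from the same libraries, so their agreement in this or any other bin is no replication. The 70 to 75 Mb bin followed with 0.43 over 40 windows, and 8 of 9 sets were above 0. The 40 to 45 Mb bin had 0.34 over 67 windows, with every set above 0 (0.03 to 0.84).

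The largest excess of windows above the level-matched value came from the 45 to 50 Mb bin, with 28. Its 204 windows went from a median of 6.99 to 7.26, the median change was 0.21, and 115 windows (56.4%) were higher. Single sets ran from -0.03 to 0.38 there. The last bin, from 75 Mb to the end of the long arm, had an excess of 17 and a median of 0.22 over 70 windows, at the highest median level of the bins, 7.73. The 5 to 10 Mb bin had a median of 0.02 and sets from -0.13 to 0.34. With each of the 14 bins that hold measured windows left out in turn, the median of the whole chromosome stayed between 0.00 and 0.07. The lowest values came without the 30 to 35 Mb bin and without the 45 to 50 Mb bin.

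The lowest median, -0.35, was that of the 55 to 60 Mb bin. Its 141 windows went from a median of 6.81 with DMSO to 6.46 with PT2399, and 51 of them (36.2%) were higher. All 9 sets were below 0 in this bin (-0.52 to -0.18). Leaving it out raised the median of the chromosome to 0.07, the largest shift from any of the 14 unshifted bins. The bins at 15 to 20 Mb, 0 to 5 Mb and 20 to 25 Mb had -0.18, -0.13 and -0.12, and in each the sets crossed 0. The short-arm side as a whole had -0.03 and the remainder 0.03, so the arms differed by less than single sets did.

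**Figure D2:**
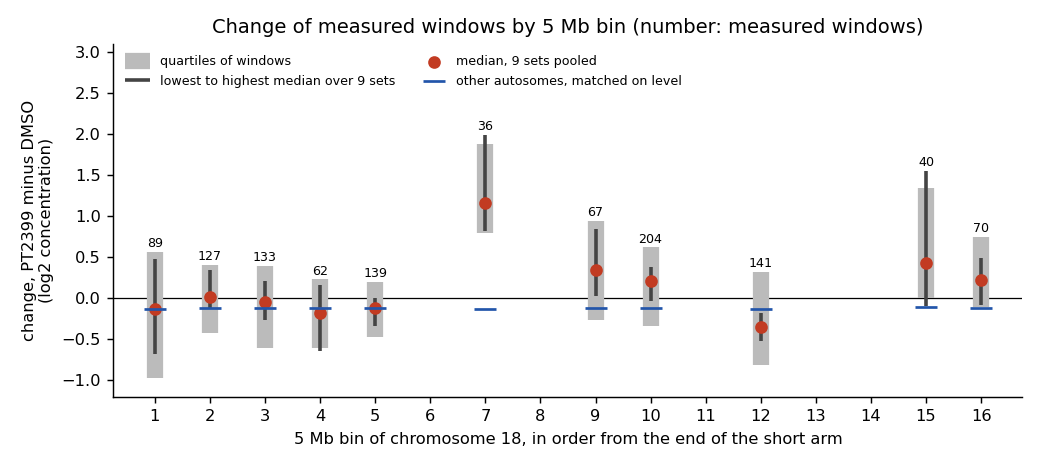
Change in log2 concentration (PT2399 minus DMSO) of measured windows for the 11 bins of chromosome 18 with at least 20 of them: red points, pooled medians; grey bars, quartiles; dark lines, lowest to highest median of the 9 sets; blue ticks, other autosomes weighted to the same levels. Bin 7 (30 to 35 Mb) stands at 1.16 and bin 12 (55 to 60 Mb) at -0.35, and the blue ticks lie between -0.13 and -0.11.

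Such a mixture of bins was also seen elsewhere at like levels. Of 392 bins on the other autosomes with at least 20 measured windows, 90 (23%) had a median above 0, and they ran from -0.89 to 1.29. Among the 160 whose median level fell between 5.78 and 7.73, the range of the bins of chromosome 18, 56 (35%) did, against 6 of 11 (54.5%) here. Those 160 bins had quartiles of -0.27 and 0.08 and ran from -0.81 to 0.93. The 30 to 35 Mb bin of chromosome 18, at 1.16, lay above these 160, and the other 10 bins lay within their range. Among all 392 bins, 2 of lower level had a higher median, 1.29 on chromosome 3 (110 to 115 Mb, level 5.10) and 1.20 on chromosome 6 (150 to 155 Mb, level 5.60).

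By level, chromosome 18 lay above the other autosomes in each step between 4 and 9, by 0.08 to 0.46. Between levels 6 and 7 its 327 windows had a median change of 0.09, against -0.15 on the other autosomes. Between 7 and 8 a further 327 windows had 0.01, against -0.13. Between 8 and 9, where the quartiles were narrowest, 152 windows had -0.01, against -0.11. Between 5 and 6 its 201 windows had -0.04, against -0.12. Between 4 and 5 its 93 windows had 0.40, against -0.06. From the lowest of these 5 steps to the highest the difference was 0.46, 0.08, 0.24, 0.14 and 0.10, with no steady order. Single sets of chromosome 18 ran from -0.60 to 1.03 between 4 and 5 and from -0.56 to 0.16 between 5 and 6. In the next 3 steps they ran from -0.07 to 0.32, from -0.15 to 0.07 and from -0.10 to 0.17. Between 3 and 4, with 18 windows, chromosome 18 lay below the other autosomes, at -0.80 against 0.09. Within the bins of positive median every level step was above 0, from 0.12 at 8 and above to 0.44 between 6 and 7. Within the bins of negative median every step was below 0, from -0.06 at 8 and above to -0.34 below 6. These groups of bins were formed by the sign of their change, so the split itself is no result.

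**Figure D3:**
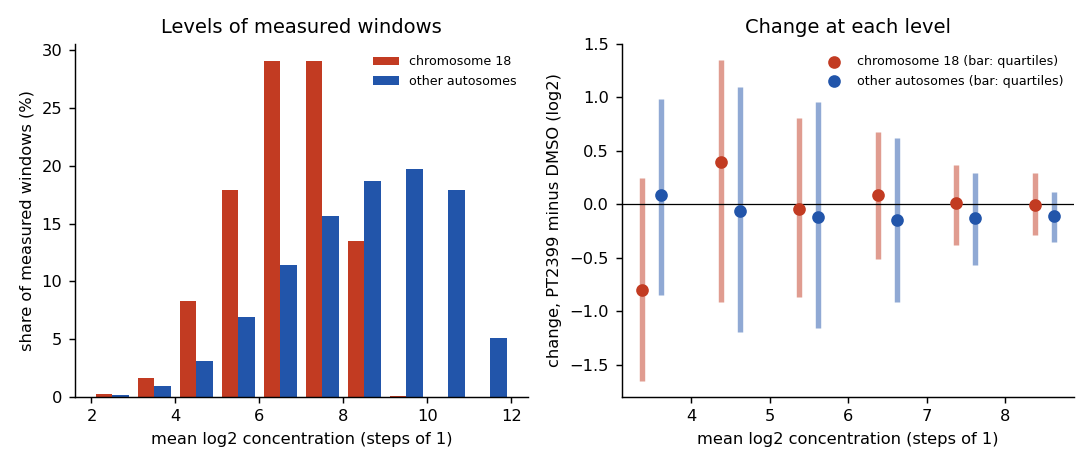
Left, share of measured windows (percent) at each step of mean log2 concentration; right, median change (PT2399 minus DMSO, log2) with quartile bars at each step with at least 18 windows of chromosome 18; red, chromosome 18; blue, other autosomes. Chromosome 18 has its windows mainly between 5 and 9, and its medians lie above those of the other autosomes in every step shown except that from 3 to 4.

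Matching on level narrowed the distance between chromosome 18 and some other autosomes and widened it for others. With all measured windows of the other autosomes pooled and weighted to the levels of chromosome 18, in steps of 0.5, the median was -0.12. Chromosome 18 lay 0.15 above the other autosomes with no matching and 0.14 above this matched median. Single sets gave a difference between 0.05 and 0.23. Weighted one by one in the same way, the other 21 autosomes ran from -0.41 on chromosome 22 to 0.04 on chromosomes 10 and 21. At these levels 2 autosomes were thus at or above the 0.02 of chromosome 18, 18 were below 0 and chromosome 9 had 0.00. Chromosome 10 had -0.07 over all its measured windows and 0.04 at the levels of chromosome 18, with sets from -0.05 to 0.09. Chromosome 21 went from -0.09 to 0.04, but its sets ran from -0.31 to 0.33. Being the only autosome with a median above 0 therefore held for all measured windows and not at matched level. Of the 3 autosomes nearest in floor share, 2 moved away from chromosome 18 with matching. Chromosome 8 went from -0.07 to -0.17 and chromosome 13 from -0.10 to -0.14, and chromosome 21 is given above. Chromosome 22 went from -0.17 to -0.41. Chromosome 13, with a median level of 6.64 and a quartile width of 0.98, was the nearest in level, and 41.8% of its measured windows were higher against 51% on chromosome 18. When windows were matched on their DMSO value, whose error also enters the change, the offset of chromosome 18 fell to 0.06.

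**Figure D4:**
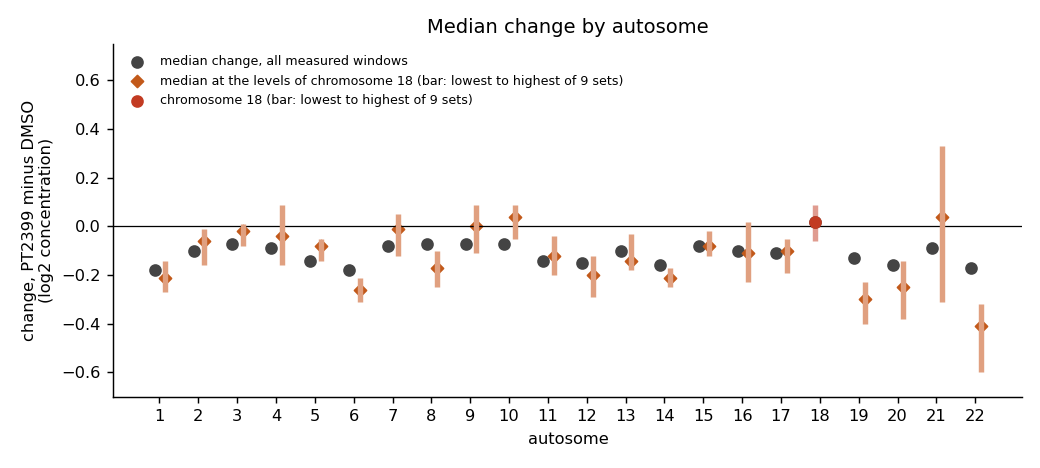
Median change (PT2399 minus DMSO, log2 concentration) by autosome over all measured 100 kb windows (dark points; red for chromosome 18) and weighted to the levels of chromosome 18 (orange diamonds); bars run from the lowest to the highest of the 9 sets. Chromosome 18 is the only autosome above 0 among the dark and red points, while chromosomes 10 and 21 reach 0.04 at matched level.

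Windows that left or reached the floor leaned toward PT2399 on chromosome 18. There were 231 windows (3.29%) at the floor with DMSO and at 2 or more with PT2399, and 121 windows (1.73%) with the reverse. On the other autosomes the shares were 2.41% and 2.11%. More gained than lost windows were also found on 13 of the 21 other autosomes. Chromosome 18 had 1.91 gained windows for each lost one, rank 2 of 22 autosomes. Chromosome 21 leaned further, at 2.46, though on only 32 gained and 13 lost windows (0.741% and 0.301%). Chromosomes 8, 10 and 13 had ratios of 1.77, 1.66 and 1.26. Gained windows were most frequent in 3 bins, with 37 in the 45 to 50 Mb bin, 27 in the 40 to 45 Mb bin and 26 in the 55 to 60 Mb bin, where 7, 10 and 5 were lost. The last of these was the bin whose measured windows had the lowest median. Losses outnumbered gains in 4 bins, with 24 against 16 at 0 to 5 Mb, 12 against 9 at 20 to 25 Mb, 10 against 2 at 60 to 65 Mb and 3 against 1 at 65 to 70 Mb.

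Few windows of chromosome 18 passed the authors' test. At an FDR of at most 0.01 in the authors' deposited tables, 3 measured windows were called lower (0.267%) and 2 higher (0.178%), where the background over all measured windows was 1.55% lower and 0.0853% higher. Calls follow the level, and at the levels of chromosome 18 the other autosomes had 0.369% and 0.133%, or 4.14 and 1.49 windows for as many windows as here. By an unadjusted p under 0.05 in the authors' deposited tables, 28 of 1122 measured windows of chromosome 18 were lower and 33 higher. Together these 61 windows were 5.44% of its measured windows. The background over all measured windows was 15.3% lower and 1.95% higher. Level-matched autosomes had 61.2 lower and 29.2 higher windows for the same number of windows, or 8.06% together. The count of lower windows was thus the one that was smaller here. As the chromosome was chosen by this contrast, these counts describe it and are no test.

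The 3 lower windows merged into chr18:8720001-8840000, in the 5 to 10 Mb bin. In its best window DMSO stood at 8.87 and PT2399 at 7.76, a change of -1.11 or 46.3% of the control. The authors' deposited table gives this window an FDR of 0.00366. This segment was among the 3 with the highest DMSO level on the chromosome, whose error also enters the change, and the profiles of the treatments came together again on both sides of it. The next lower segments did not pass. At chr18:56340001-56440000 the values were 7.62 and 3.46 (FDR 0.0136), and at chr18:9760001-9860000 they were 7.53 and 5.07 (FDR 0.0352), both in the authors' deposited tables. At chr18:46980001-47080000 the change was -1.11 from 8.42 (FDR 0.104), and at chr18:44020001-44120000 it was -4.07 from 6.13 (FDR 0.123), in the authors' deposited tables.

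Both higher calls lay in the last block of measured windows on the long arm, chr18:77070001-77980000. At chr18:77310001-77410000 the concentration was 2.15 with DMSO and 7.33 with PT2399, a change of 5.18 from a value just inside the minimum, and the authors' deposited table gives an FDR of 0.00162. At chr18:77760001-77860000 DMSO stood at 6.14 and PT2399 at 8.30, a change of 2.16, for which the authors' deposited table gives an FDR of 0.00612. In both places the PT2399 profile ran on at about the level of its surroundings, and the DMSO profile dipped. At the first, the dip reached the floor in overlapping windows, which merged into chr18:77320001-77450000 and had a best FDR of 0.000111 in the authors' deposited table. The higher segments that came next did not pass, with FDRs of 0.0757, 0.0811 and 0.0848 in the authors' deposited tables. They were chr18:2810001-2910000, from 3.39 to 7.13, chr18:45960001-46060000, from 2.80 to 6.83, and chr18:47110001-47210000, from 8.04 to 8.72.

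**Figure D5:**
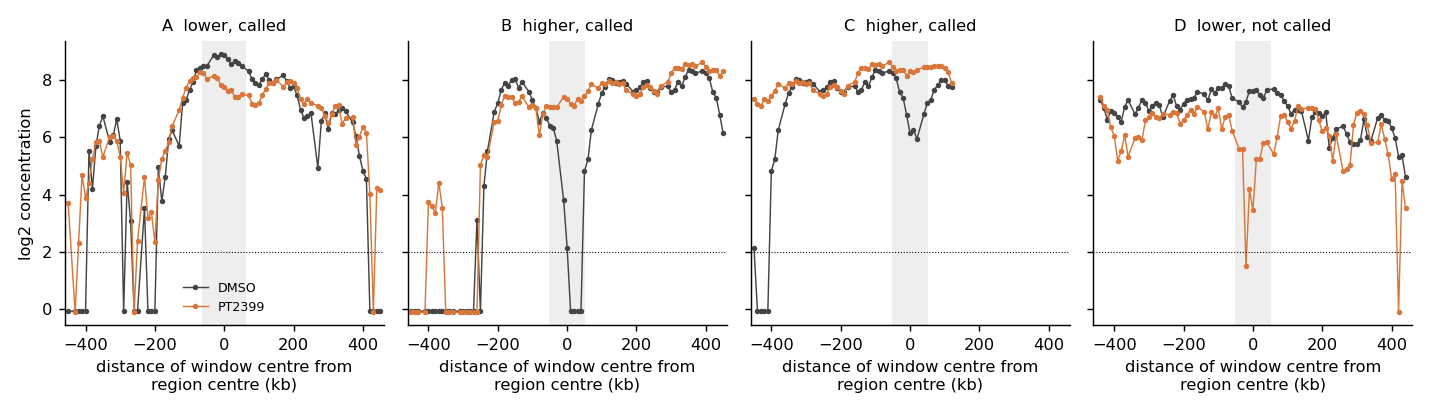
Log2 concentration of overlapping 100 kb windows with DMSO (dark) and PT2399 (orange) against the distance of the window centre from the region centre (kb), up to 450 kb to each side; grey, the region; dotted line, the minimum of 2. A is the called lower region, B and C are the called higher ones (C ends at the end of the long arm) and D is the lower segment chr18:56340001-56440000, which did not pass. In B and C the dark line dips, and in A and D the orange line lies below.

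Below the minimum in 1 treatment, a further 2 windows were called lower and 7 higher at the same FDR. In the authors' deposited tables, chr18:19880001-19980000 had 7.23 with DMSO and lay at the floor with PT2399 (FDR 0.000127), and chr18:56320001-56420000 had 7.25 and 1.51 (FDR 0.000544). In the other direction, the authors' deposited tables give chr18:74810001-74920000 an FDR of 0.00156, with DMSO at the floor and PT2399 at 6.85 in the best window, and chr18:57310001-57410000 an FDR of 0.0098, with 1.47 and 6.80. With all windows counted, 5 (0.0713%) were lower and 9 (0.128%) higher, against a background of 0.614% and 0.139%. Weighted to the levels of chromosome 18, the other autosomes had 0.184% and 0.152%. A value at the floor is no measured level, so a change from or to it has no size. The values of 1.51 and 1.47 lie above the floor but below the minimum.

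The measured windows of chromosome 18, merged where they overlapped, formed 36 blocks that covered 16.55 Mb. A block can also span windows that were not measured, and its median leaves these out. In this way chr18:77070001-77980000 spans the windows of chr18:77320001-77450000 with DMSO at the floor. Likewise, chr18:55580001-56880000 spans chr18:56320001-56420000, where PT2399 stood at 1.51. Of the 15 blocks with at least 20 windows, 10 had a median change above 0 and 5 below. The longest block, chr18:19500001-21750000 with 181 windows, had -0.14, and 37.6% of its windows were higher. The block chr18:11640001-13170000 had -0.01 over 124 windows, 62 of them higher. On the long arm, chr18:45380001-46840000 had 0.21 over 115 windows and chr18:46850001-47930000 had 0.18 over 83. The most positive block of this size, chr18:33670001-34130000, had medians of 5.40 with DMSO and 6.42 with PT2399, with 26 of 30 windows higher, and its lowest FDR in the authors' deposited tables was 0.269. Adjoining blocks could differ in sign. In chr18:55160001-55570000 the median change was 0.77 and 23 of 28 windows were higher, while in chr18:55580001-56880000, which starts 10 kb farther on, it was -0.49 and 26 of 107 were higher. Near the end of the short arm, chr18:120001-550000 had -1.09, with 6 of 25 windows higher, and a lowest FDR of 0.261 in the authors' deposited tables.

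The segments with the highest signal were the same in part under both treatments. Segments picked by their DMSO value tend to be lower with PT2399 for that reason alone, as the error of the DMSO value enters the change, and the reverse holds for segments picked by PT2399, so no direction is read from either choice. The highest DMSO value on the chromosome, 9.20 at chr18:46380001-46480000, stood beside 8.78 with PT2399, a change of -0.42, to which the authors' deposited table gives an FDR of 0.278. At chr18:21110001-21210000 the values were 8.97 and 8.85, with 0.781 as the FDR of the authors' deposited table. The third segment by DMSO value was the called lower region, with 8.90 and 7.82 in its window of highest DMSO level. The 3 highest PT2399 values were 8.98 at chr18:46450001-46550000, beside 8.99 with DMSO, 8.91 at chr18:21140001-21240000, beside 8.62, and 8.72 at chr18:47110001-47210000, beside 8.04. The first and second of these overlap the first and second by DMSO.

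In windows of 50 kb, made from the same libraries and so no independent check, 2205 of 14040 windows of chromosome 18 were measured. Their median change was 0.04 and lay 0.15 above that of level-matched autosomes. The 30 to 35 Mb bin again had the highest median, 0.60 over 66 windows, and the 55 to 60 Mb bin had -0.10 over 277 windows, close to its matched value of -0.11. The 0 to 5 Mb bin turned from -0.13 to 0.05, and the 5 to 10 Mb bin, one of the 6 with a positive median at 100 kb, turned from 0.02 to -0.01 with 2 of 9 sets above 0. Of the 2205 measured windows, 1 was called lower and 1 higher by the authors' deposited tables (0.0454% each), with a background of 0.357% and 0.0291%. Weighted to the levels of chromosome 18, the other autosomes had 0.1% and 0.0433%. The window called lower, chr18:9815001-9865000, had 7.08 with DMSO and 2.04 with PT2399, and its FDR in the authors' deposited table was 0.000653. The lowest FDR on the chromosome, 3.49e-06 in the authors' deposited table, belonged to a window of chr18:77785001-77855000 with 0.97 for DMSO and 7.43 for PT2399, which overlaps the higher region called at 100 kb. The lower region called at 100 kb, chr18:8720001-8840000, had no called window of 50 kb.

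Among the genes that the authors listed for their lower windows, none whose symbol could be matched was placed on chromosome 18. Of its 270 protein-coding genes, 0 were found by symbol in the authors' deposited 100 kb list, while 857 of 18856 (4.54%) on the other autosomes were. In the authors' deposited 50 kb list it was again 0, against 1.17%. These shares are not matched on level. Neighbouring genes can share a window, so genes are not independent and the contrast is no test. The authors' list of lower windows holds 3 windows of chromosome 18 among 1403. Another 40 and 7 listed symbols matched no gene of the RefSeq table and have no chromosome here. A gene of chromosome 18 listed under such a symbol, for example for 1 of these 3 windows, would be missed. The 0 therefore covers matched symbols only. The 0 of 270 leaves 0 for any smaller group of its genes, so the 51 well-known genes looked up, in 7 groups, add nothing to it. Among them are SMAD2, SMAD4 and SMAD7, which carry or inhibit TGF-β signals, BCL2, which blocks apoptosis, and the transcription factor GATA6. A window at the floor in both treatments has nothing to lose. Of the 5459 such windows on chromosome 18, 0 were called in the authors' deposited tables. The same held for all 171844 such windows of the whole series, so this count is not particular to chromosome 18. A gene in such a window can also lie in an overlapping window above the floor. Whether the floor share accounts for the lack of listed genes was not tested. Genes could not be placed on hg19 here, so no gene of chromosome 18 carries a concentration of its own.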

How the data were processed

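Per the submitters' processing notes, Bowtie2, Picard, DiffBind and bedtools were used with the build hg19. Not given in the sources used here are versions, roles, scaling and the use of the inputs. The authors' tables hold, per the file headers, log2 concentrations for control and treatment, their mean and a log2 fold, which equals control minus treatment to within 0.01 and was turned here to PT2399 minus DMSO. A p-value and an FDR per window were deposited too and are the only measure of error used. Whether the 2 replicates were separate cultures is not in the labels, so these may reflect technical spread only. The authors' gene and window lists hold names and positions.

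Windows of chromosome 18 were pooled over the 9 sets of 100 kb. Bins of 5 Mb were assigned by window start, and bins under 20 measured windows were not ranked. For level matching, windows of other autosomes were weighted to the counts of chromosome 18 in steps of 0.5 of mean concentration, with no random draws; this was tested on simulated data. Called windows were merged when they overlapped by at least 1 bp. Regions were named if called, and otherwise by lowest FDR up to 5 in each direction, with the 3 of highest DMSO level. Symbols were matched through a RefSeq table of assembly GRCh38, used for names and chromosomes only. The members, lists and tests were chosen with earlier results of these data known. Scripts ran in Python 3.11.15, with matplotlib 3.10.9 for figures and numpy 2.4.6, scipy 1.17.1 and pandas 2.3.3.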

Additional observations from a re-analysis of the deposited data

How the results depend on the processing

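A value was taken as unchanged when it moved by less than its standard deviation over the 9 sets, which overlap and are not replicates. The median change of chromosome 18, 0.02, was 0.10 with a mean concentration of at least 2, 0.12 with at least 2 in either treatment and 0.15 after recentring each set on all measured windows, which adds the shift of the genome. Sets 3, 5, 7 and 8 alone gave 0.08, -0.04, 0.09 and -0.06. The offset of 0.14 from level-matched autosomes was 0.06 when matched on DMSO, and between 0.13 and 0.15 under the other alternatives. The floor share of 77.9% was 82.1% as DMSO below 2 and 74.3% in 50 kb windows. Measured windows called lower and higher, 3 and 2, were 8 and 7 with the FDR limit at 0.05, 12 and 14 with it at 0.1, and 0 and 0 with it at 0.001; windows of 50 kb gave 1 and 1, and no minimum gave 5 and 9. Except for the change of threshold or windows, the cause was not tested. Bins with a median above 0 numbered 6 of 11, 6 of 11 with bins shifted by 2.5 Mb, 7 of 12 at 50 kb, where the 5 to 10 Mb bin was no longer above 0 (-0.01), and 7 of 11 with a minimum of 4. No paired analysis was possible because the deposited tables give 1 value per treatment and none per library; leaving out a replicate was not possible for the same reason.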
